A study of Mus musculus with 10 samples.

Results

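Branched-chain amino acid breakdown is described here through 10 genes in mouse cardiomyocytes, the heart's contractile cells. They were chosen by symbol: Bcat2, Bckdha, Bckdhb, Dbt, Bckdk, Ppm1k, Ivd, Mccc1, Mccc2 and Hibadh. All 10 were found among the 23337 gene rows of the authors' deposited table. Leucine, isoleucine and valine are first stripped of their amino group in mitochondria, and the resulting keto acids are then committed to oxidation by the branched-chain keto acid dehydrogenase complex. A kinase switches this complex off by phosphorylating its E1 alpha subunit, and a phosphatase switches it back on. Downstream, each amino acid has its own series of enzymes, which end in acetyl-CoA, acetoacetate or propionyl-CoA. Heart muscle expresses this pathway, and lowered breakdown of branched-chain amino acids is known from failing hearts.

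The study set wild-type mice given AAV9-cTNT-dnMKL1-GFP against wild-type mice given AAV9-cTNT-GFP. AAV9 is an adeno-associated virus that reaches the heart, cTNT is a promoter from the cardiac troponin T gene that drives expression in cardiomyocytes, and dnMKL1 is a dominant-negative form of MKL1. MKL1 (MRTF-A) is a coactivator of serum response factor, SRF. Both groups, named dnMKL1 and GFP below, received 5e+08 viral genomes per gram on postnatal day 1, and cells were collected on postnatal day 14 by collagenase perfusion and fluorescence-activated sorting. There were 5 libraries in each group, called biological replicates by the submitters. The endogenous Mkl1 gene was present in all mice, and both groups carried GFP. The table used here holds the comparison of the groups and no values per library, so each gene is given by its implied group means, its fold change and the standard error (SE) that carries the spread between libraries.

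The 4 sequences below show the 250 bases before the start site of the members with the largest changes (Hibadh and Ppm1k) and the smallest ones (Ivd and Bckdk) among those with an entry. They come from RefSeq on GRCm38.p6, are written 5′ to 3′ on the gene's own strand, and have each CCAAT box (CCAAT, or ATTGG on the other strand) in capitals. The windows are chr6:52640301-52640550 on the minus strand for Hibadh, chr6:57535488-57535737 on the minus strand for Ppm1k, chr2:118861744-118861993 on the plus strand for Ivd and chr7:127903823-127904072 on the plus strand for Bckdk.
Hibadh: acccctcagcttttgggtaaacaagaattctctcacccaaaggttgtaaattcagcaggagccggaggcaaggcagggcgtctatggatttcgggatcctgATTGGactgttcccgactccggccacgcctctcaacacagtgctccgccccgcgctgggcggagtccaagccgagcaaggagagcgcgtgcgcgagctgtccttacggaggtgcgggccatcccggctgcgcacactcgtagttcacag
Ppm1k: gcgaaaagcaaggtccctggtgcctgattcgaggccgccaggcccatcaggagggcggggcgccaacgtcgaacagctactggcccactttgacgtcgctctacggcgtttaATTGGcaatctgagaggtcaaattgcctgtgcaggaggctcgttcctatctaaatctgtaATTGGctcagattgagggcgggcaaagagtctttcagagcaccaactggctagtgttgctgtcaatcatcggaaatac
Ivd: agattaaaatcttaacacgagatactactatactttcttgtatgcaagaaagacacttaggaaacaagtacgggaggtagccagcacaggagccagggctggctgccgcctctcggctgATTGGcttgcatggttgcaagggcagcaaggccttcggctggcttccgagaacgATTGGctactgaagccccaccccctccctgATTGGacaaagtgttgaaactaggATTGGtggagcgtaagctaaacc
Bckdk: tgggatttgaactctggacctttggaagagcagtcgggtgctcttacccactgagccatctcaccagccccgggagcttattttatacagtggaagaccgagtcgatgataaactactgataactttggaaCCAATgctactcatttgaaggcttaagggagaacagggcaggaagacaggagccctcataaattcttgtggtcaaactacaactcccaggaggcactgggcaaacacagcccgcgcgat

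RefSeq promoter windows of 300 bases, 250 before and 50 after the start, were matched for 9 of the 10 members (11 windows), Dbt being the other. CCAAT boxes were in 8 of the 11 windows, in Bckdhb, Bckdk, Hibadh, Ivd, Mccc1, Mccc2 and Ppm1k, against 37.4% of all 32851 windows. Ivd held 4 of them, at 131, 77, 47 and 23 bases before the start, while Hibadh held 1, at 149 bases before it. The CArG box, the element that SRF binds, was in 0 of the 11 member windows and in 1.63% of all windows. The element of estrogen-related receptors (TCAAGGTCA) and its core AAGGTCA were also in 0 of the 11, against 0.423% and 4.72% of all windows. Other motifs searched on both strands were TATAAA (Bckdk only, 13.6% of all windows), CACGTG (Mccc2 only, 7.15%), the NRF1 element (Hibadh only, 4.6%) and CACCC (7 of 11 windows, 57.5%). The core AAGGTCA lies inside TCAAGGTCA, so these matches are not separate. Such matches are a description of letters in these windows. The median ratio of observed to expected CpG was 0.606 over the member windows and 0.384 over all windows.

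On GRCm38 in GENCODE M21, Bcat2, Bckdha and Bckdk lie on chromosome 7, Ppm1k and Hibadh on chromosome 6, and Dbt and Mccc1 on chromosome 3. Ivd is on chromosome 2, Bckdhb on chromosome 9 and Mccc2 on chromosome 13. Bckdha shares 1171 exonic bases with B3gnt8 on the opposite strand, and Bcat2 shares 622 with the antisense gene 0610005C13Rik. The use of strand in counting is not given in the sources used here, so reads of such pairs may not be told apart. The authors' deposited table lists base means of 4.47 normalized counts for B3gnt8 and 2.73 for 0610005C13Rik, against 2083 for Bckdha and 1165 for Bcat2. Exons of Bckdha span 1899 bases in all, and the effect of the overlap on its counts and level per kilobase was not tested. Mccc1 overlaps 3 small antisense or pseudogene annotations and Hibadh 1 small nucleolar RNA, none of which was analysed here.

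Size factors recovered from genes with 1 read put the library totals at an estimated 8803028 to 17123588 counts in the GFP group and 8835136 to 17228619 in the dnMKL1 group. The authors' deposited table lists Mkl1 at a log2 fold change of 9.80 (SE 0.15), and its sign sets the direction of every comparison, since the headers do not state it. Reads from the vector are not separated from those of the endogenous gene. Cardiomyocyte markers (Myh6, Tnnt2, Actc1, Ryr2, Tnni3 and Myl2) were all present, with base means of 10438 or more. All 6 had log2 fold changes below 0, and 5 were called lower in dnMKL1 libraries. The implied means of the 6 summed to 1334090 for GFP and 703381 for dnMKL1. Of the 6 fibroblast markers 3 were called higher, with sums of 3188 and 4413. Of the 6 endothelial markers 0 were called, with sums of 2410 and 2493 and SEs of 0.29 to 0.35. By unadjusted p under 0.05 the endothelial count was also 0. The 6 mural markers summed to 11753 and 7973, with 2 higher and 1 lower. The lower one was Acta2, which went from 10454 to 4999 and makes up most of these sums. All other mural markers had log2 fold changes above 0. Macrophage markers, 5 of 6 in the table, summed to 134 and 120 with 1 higher, and erythroid markers to 8.09 and 8.56, with Hba-a1 and Hba-a2 listed at 0. The part of these shifts in the results below was not tested. In such bulk samples, fewer cells of a type and less RNA per cell cannot be told apart.

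Transcripts of branched-chain amino acid breakdown were lower in the dnMKL1 libraries. All 10 members had log2 fold changes below 0 in the authors' deposited table, and 8 of the 10 fell at an adjusted p under 0.05. The values ran between -1.05 and -0.20, and their median was -0.45. None rose, and 9 had an unadjusted p under 0.05. Over all 14056 genes tested, 17.4% were called lower and 16.6% higher, with a median log2 fold change of 0.021. Genes of like abundance were lower more often: of 3533 genes whose base mean lay within the members' range, 34.1% were called lower and 15.7% higher, with a median log2 fold change of -0.097. Dbt and Ivd were the members that did not pass. These calls rest on the authors' scaling. With both groups brought to the same total, every log2 fold change rises by 0.29, and 3 of the 10 members (Hibadh, Bckdhb and Ppm1k) were then called lower and none higher. Beside them, 6.6% of all genes were called lower and 40.4% higher, and 11.6% of those in the members' range were lower. With Mkl1 left out of those totals, Hibadh and Bckdhb were called lower, beside 6.34% of all genes lower, 41.3% higher and 11% lower in the members' range.

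**Figure D1:**
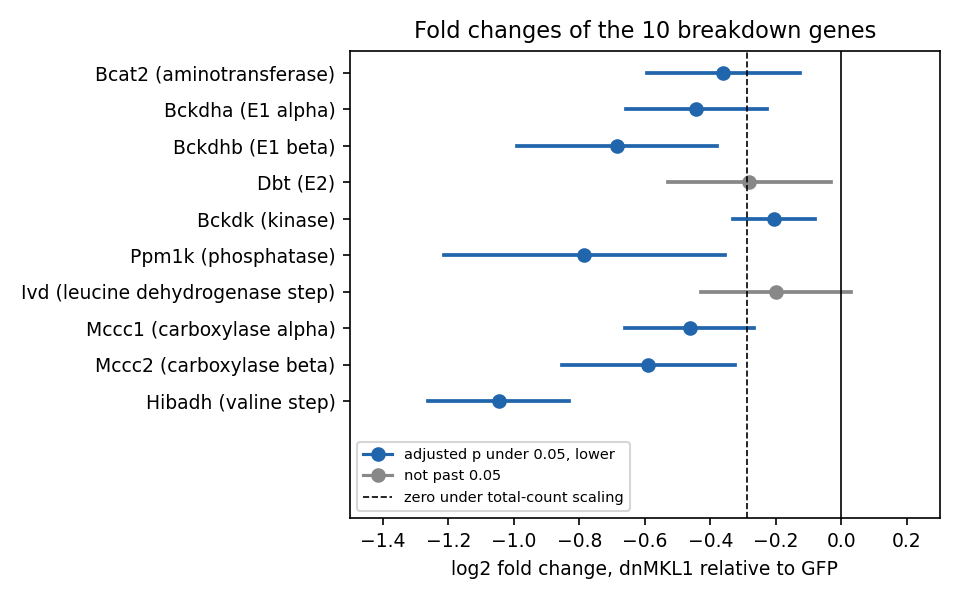
Log2 fold change of each member, dnMKL1 relative to GFP (points), with 95% confidence intervals (lines) from the deposited SE, 5 libraries per group. All 10 points lie left of 0, with Hibadh farthest at -1.05. The dashed line marks where 0 would lie under total-count scaling, and Dbt, Bckdk and Ivd lie right of it.

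Bcat2 encodes the mitochondrial aminotransferase, the first and reversible step for all 3 amino acids. Its implied means were 1310 normalized counts for GFP and 1020 for dnMKL1, or 77.8% of the GFP level (95% confidence interval 66.2 to 91.5). This is a log2 fold change of -0.36 (SE 0.12) in the authors' deposited table, with an adjusted Wald p of 0.0096. Under total-count scaling it was -0.073 with an adjusted p of 0.651.

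Of the dehydrogenase complex, both E1 subunit genes fell and the E2 gene did not pass the test. Bckdha encodes E1 alpha, the subunit that carries the regulatory phosphorylation sites, and Bckdhb encodes E1 beta, its partner in the decarboxylase. Bckdha had implied means of 2400 and 1766 normalized counts, which is 73.6% of the GFP level (63.4 to 85.4). The authors' deposited table lists it at -0.44 (SE 0.11) on the log2 scale, with an adjusted p of 3.7e-04. Bckdhb went from 761 to 474, or 62.2% of the GFP level (50.4 to 76.9). For Bckdhb the log2 value there was -0.68 (SE 0.16), with an adjusted p of 8.5e-05 in the authors' deposited table. The confidence intervals of Bckdha, Bckdhb and Dbt overlap, and differences between them were not tested, since the table holds no covariance between genes.

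Dbt encodes E2, the transacylase core onto which the other subunits assemble. It had implied means of 591 and 486 normalized counts, or 82.3% of the GFP level (69.2 to 97.8). For Dbt, the authors' deposited table has a log2 fold change of -0.28 (SE 0.13), with an unadjusted p of 0.0272 and an adjusted p of 0.0737. At this SE a change had to exceed 0.30 on the log2 scale to be called, so a smaller fall was not detectable here. Dld encodes E3, which this complex shares with the pyruvate and 2-oxoglutarate dehydrogenases. It fell to 49.8% of the GFP level, with a log2 fold change of -1.01 (SE 0.10) and an adjusted p of 6.8e-20 in the authors' deposited table. The shared subunit therefore had a larger measured fall than E1 alpha, E1 beta or E2, and its confidence interval, -1.21 to -0.80, did not reach those of Bckdha and Dbt, while it overlapped that of Bckdhb.

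The kinase and the phosphatase of the complex both fell. Bckdk, the kinase that inactivates the complex, had implied means of 2444 and 2119 normalized counts, or 86.7% of the GFP level (79.5 to 94.6). Its log2 fold change of -0.21 in the authors' deposited table was small, but it had the smallest SE of the members, 0.064, and passed with an adjusted p of 0.0058. Ppm1k, the mitochondrial phosphatase that reactivates the complex, had implied means of 758 and 440, or 58.1% of the GFP level (43.2 to 78.1). Ppm1k stood at -0.78 in the authors' deposited table with the largest SE of the members, 0.22, and an adjusted p of 0.0017. The log2 fold change of the kinase exceeded that of the phosphatase by 0.58, a difference that was not tested. Under total-count scaling the value for Bckdk turned to 0.083 (adjusted p = 0.298), whereas Ppm1k kept -0.50 (adjusted p = 0.0491). With Mkl1 left out of the totals, Ppm1k was not called (adjusted p = 0.0537). Per kilobase of transcript, the implied level of Bckdk was 5.27 times that of Ppm1k in the GFP group and 7.87 times in the dnMKL1 group. With coding length in place of transcript length, the ratio in the GFP group was 2.91.

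In the leucine branch, Ivd did not pass and both carboxylase subunits fell. Ivd encodes isovaleryl-CoA dehydrogenase, the flavin enzyme that follows the complex for leucine. It had implied means of 3573 and 3111 normalized counts, or 87.1% of the GFP level, with an interval of 74.3 to 102 that includes no change. Ivd was at -0.20 on the log2 scale (SE 0.12, adjusted p = 0.186) in the authors' deposited table. Mccc1 and Mccc2 encode the subunits of methylcrotonyl-CoA carboxylase, the next enzyme, of which the Mccc1 product carries biotin. Mccc1 went from 2351 to 1706, or 72.6% of the GFP level (63.3 to 83.1). Mccc2 went from 1013 to 673, or 66.5% (55.4 to 79.8). On the log2 scale these falls were -0.46 (SE 0.10, adjusted p = 3.4e-05) for Mccc1 and -0.59 (SE 0.13, adjusted p = 8.9e-05) for Mccc2 in the authors' deposited table. Their intervals overlap. Under total-count scaling neither was called, with -0.17 (adjusted p = 0.144) for Mccc1 and -0.30 (adjusted p = 0.0527) for Mccc2.

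Hibadh had the largest fall of the members. It encodes 3-hydroxyisobutyrate dehydrogenase of the valine branch, whose substrate can leave muscle cells and is known to act on fatty acid uptake by endothelium. Its implied means were 6320 normalized counts for GFP and 3059 for dnMKL1, or 48.4% of the GFP level (41.7 to 56.2). In log2 terms that is -1.05 (SE 0.11), with an adjusted p of 1.4e-19, in the authors' deposited table. Its interval did not overlap those of Bcat2, Bckdha, Dbt, Bckdk, Ivd or Mccc1. It stayed lower under total-count scaling, at -0.76.

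**Figure D2:**
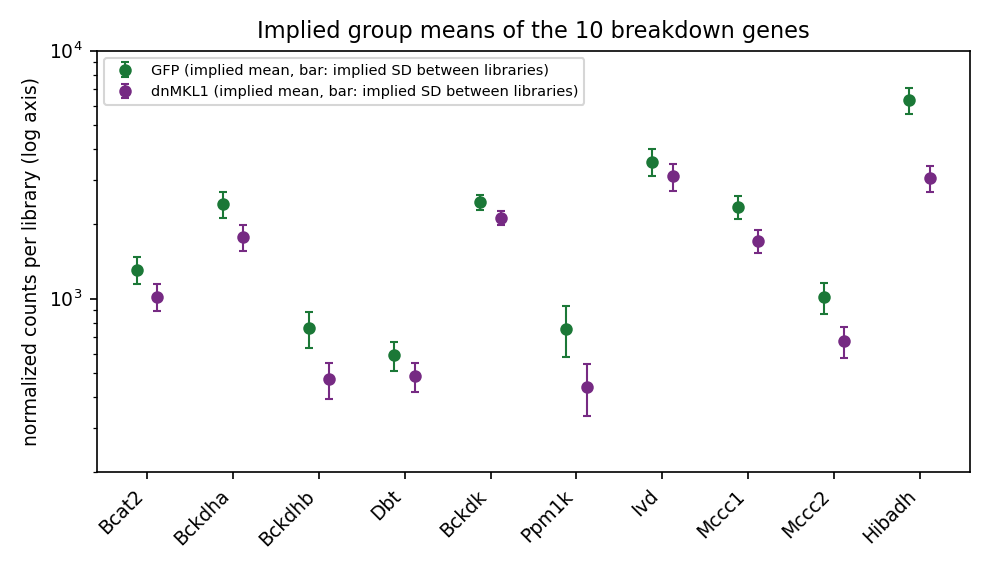
Implied mean of each member in the GFP group (green) and the dnMKL1 group (purple), in normalized counts on a log axis. Bars are the SD between libraries implied by the deposited SE. The GFP mean lies above the dnMKL1 mean for each of the 10 members, and the bars overlap for Dbt and Ivd and, among called members, for Bcat2.

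The spread between libraries, and not read depth, set most of the error. The SEs of the members were 3.30 to 7.93 times as large as counting error of reads alone would give at these depths. Noise from PCR is not separated from this spread. Solving the deposited SE for the variation between libraries gave a coefficient of variation (SD divided by the mean) of 6.70% for Bckdk, the lowest, and 23.5% for Ppm1k, the highest, with a median of 12.7%. These values hold for a negative binomial model without covariates, and DESeq2 draws such dispersions toward a trend over genes. Accordingly, the smallest absolute log2 fold change that could be called ran from 0.15 for Bckdk to 0.52 for Ppm1k. Dbt and Ivd, with 0.30 and 0.28, lay between them.

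Per kilobase of transcript, the order of implied levels in the GFP group ran from Hibadh through Bckdha, Ivd, Mccc1, Bcat2, Bckdk, Bckdhb, Mccc2 and Dbt to Ppm1k. Hibadh stood at 3463 normalized counts per kilobase and Ppm1k at 136. Neighbours differed by less than the larger of their implied SDs in 3 places: Ivd (975) and Mccc1 (958), Bcat2 (739) and Bckdk (718), and Bckdhb (515) and Mccc2 (477). Within the complex, Bckdha at 1264 stood 2.45 times above Bckdhb, and Bckdhb 2.88 times above Dbt at 179. Dld, which serves several complexes, stood 27.4 times above Dbt. Lengths were those of the GENCODE transcript with the longest coding sequence. With coding length, 8 of the 45 pairs of members changed order, and Bckdhb stood 1.59 times above Dbt. Dbt was then the lowest member, at 409 normalized counts per kilobase. Ppm1k, at 679, then stood above Bckdhb (650) and Mccc2 (600).

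The members sit in the upper part of the abundance range, where falls were common. Their base means, from 539 for Dbt to 4690 for Hibadh, left 72.5% of the tested genes below the lowest member and 2.40% above the highest. Among the 3533 tested genes of that range, 1.33% had a log2 fold change below that of Hibadh. For Ppm1k the share was 4.16%, for Bckdhb 6.68% and for Mccc2 9.54%. The other members had larger shares below them, 15.6% for Mccc1, 16.8% for Bckdha, 21.7% for Bcat2, 28.6% for Dbt, 36.7% for Bckdk and 37.4% for Ivd. Hibadh thus lay near the lower end of the fold changes in that range, and Bckdk and Ivd lay nearer the middle. Since the base mean of Hibadh is the upper edge of the range, the genes it was ranked against were less abundant. Its place among genes of its own abundance was not tested.

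**Figure D3:**
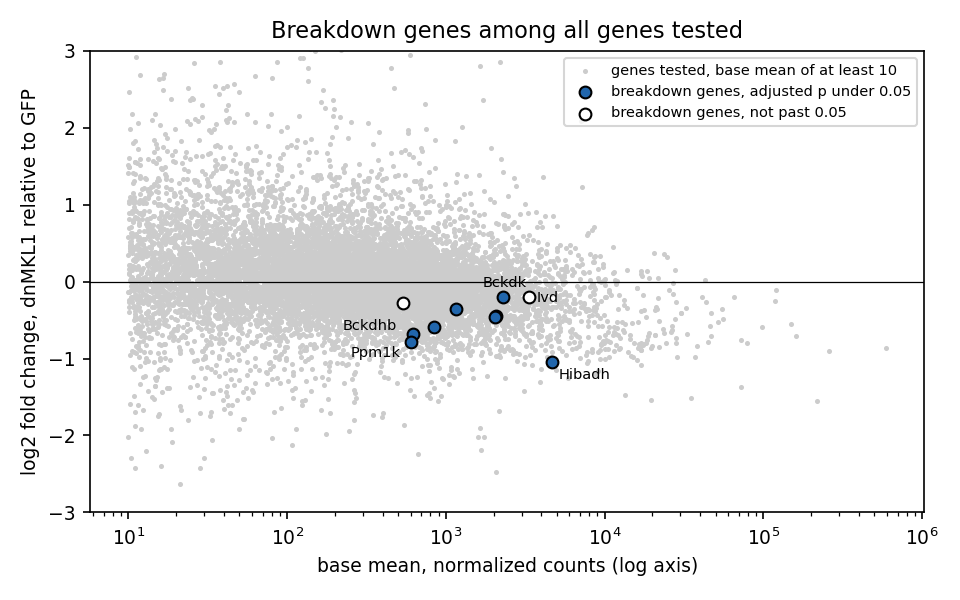
Log2 fold change against base mean (log axis) for the 11914 tested genes whose base mean was 10 or more (grey) and the members (circles, filled where called). Of the grey points, 49 lie outside the axis limits of -3 and 3. The members lie below 0, Hibadh lowest, in a range where 34.1% of all tested genes were called lower.

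The enzymes of the same pathway outside the 10 members were examined from a list of 20 genes, without those left out as not reported. In the authors' deposited table, 14 of them were called lower and 1 higher, with a median log2 fold change of -0.52 beside -0.45 for the members. Under total-count scaling these counts were 10 and 3. Shares over all genes tested were 17.4% lower and 16.6% higher, and 6.6% and 40.4% under total-count scaling. In the valine branch 4 of 5 fell, and under total-count scaling 3 were called lower and 1 higher. Echs1, a hydratase shared with fatty acid oxidation, had a log2 fold change of -0.98 (SE 0.10) in the authors' deposited table. Hibch, the hydrolase that makes the substrate of Hibadh, had -0.81 (SE 0.10), and Aldh6a1, which acts after Hibadh, had -0.68 (SE 0.13). The 3 steps around Hibadh thus had falls of -0.68 to -1.05, and under total-count scaling all 3 remained lower with adjusted p of 4.1e-06 for Hibch and 0.0098 for Aldh6a1. In the isoleucine branch, Hsd17b10, a dehydrogenase, fell by 0.59 on the log2 scale (SE 0.11) in the authors' deposited table, and Acadsb had -0.24 (SE 0.11, adjusted p = 0.0807).

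All 6 genes of propionyl-CoA use fell under the authors' scaling, beside 17.4% of all genes tested. On the log2 scale, the authors' deposited table has -0.67 (SE 0.11) for Pcca and -0.32 (SE 0.09) for Pccb, the carboxylase subunits, and -0.70 (SE 0.15) for Mcee and -0.56 (SE 0.12) for Mut, the epimerase and the mutase. Under total-count scaling 3 of the 6 were called lower, and 2 with Mkl1 left out of the totals. For all genes tested these shares were 6.6% and 6.34%. In the rest of the leucine branch and the shared steps, 3 of 7 fell. Auh, the hydratase after the carboxylase, had -0.63 (SE 0.12), and Acat1, a thiolase, had -0.65 (SE 0.11) in the authors' deposited table. Btd, the biotinidase that recycles the carboxylase cofactor, rose by 0.43 on the log2 scale (SE 0.10, adjusted p = 2.0e-04), opposite to the carboxylase subunits. Bcat1, the cytosolic aminotransferase, was near the limit of detection with a base mean of 1.46 normalized counts in the authors' deposited table, against 1165 for Bcat2. Its implied means, 0.609 and 2.31, were both under a floor of 3 counts, and no fold is given.

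**Figure D4:**
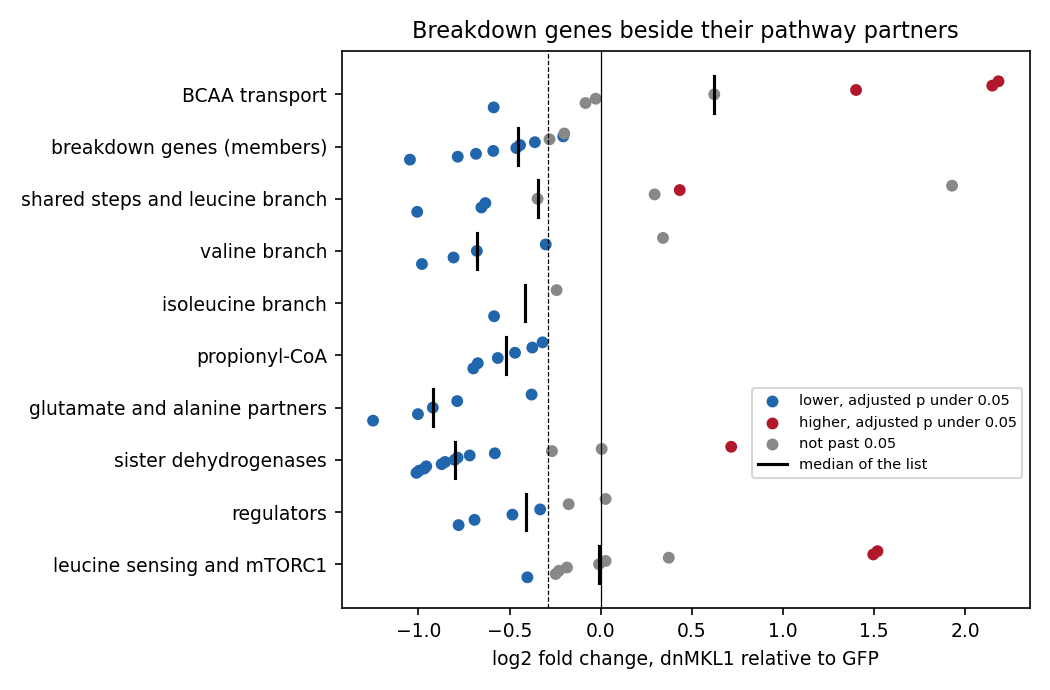
Log2 fold change of each gene (points) in the member list and 9 lists of pathway partners. Bcat1 is drawn among them, although both its implied means were under a floor of 3 counts. Colour marks the call at an adjusted p under 0.05, and black bars mark list medians. The breakdown lists lie mostly left of 0, while the transport list has 3 genes called higher. The dashed line marks 0 under total-count scaling, and points between the lines change sign under it.

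Transporter genes went in both directions. Of 7 transporter genes, 3 rose and 1 fell, with a median log2 fold change of 0.62 in the authors' deposited table. Under total-count scaling 5 were called higher and 0 lower. Over all genes tested, 16.6% were called higher and 17.4% lower, and under total-count scaling 40.4% and 6.6%. Slc7a5 encodes LAT1, a plasma membrane exchanger of large neutral amino acids. Its implied mean went from 71.3 to 316 normalized counts, and the authors' deposited table gave a log2 fold change of 2.15 (SE 0.32, adjusted p = 4.7e-10). Slc43a1 encodes LAT3, a facilitated transporter of the same amino acids, and went from 5.29 to 24.0 (log2 fold change 2.18, SE 0.45, adjusted p = 1.3e-05). Slc7a8 encodes LAT2 and went from 16.7 to 44.1, with 1.40 (SE 0.35, adjusted p = 4.9e-04). Slc3a2, the heavy chain that LAT1 and LAT2 require, had 0.62 (SE 0.26) and an adjusted p of 0.0504. It was called higher under total-count scaling, at 0.91 (adjusted p = 0.0017). Slc7a6 fell by 0.59 on the log2 scale (SE 0.14), and under total-count scaling it was not called (adjusted p = 0.0573). Slc25a44, the mitochondrial carrier that brings these amino acids to Bcat2, had a log2 fold change of -0.028 (SE 0.083, adjusted p = 0.852) in the authors' deposited table. That value turned to 0.26 and was called under total-count scaling (adjusted p = 0.0049).

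The pyruvate and 2-oxoglutarate dehydrogenases are built on the same plan, and their genes were set beside the members. All 6 of their subunit genes fell, with log2 fold changes of -1.01 to -0.58 and a median of -0.91 in the authors' deposited table. All 6 were also called under total-count scaling. The shares of all genes tested called lower were 17.4% and, under total-count scaling, 6.6%. Base means of these 6 genes ran from 3362 to 46262 normalized counts, most of them above the members' range. No share was taken over genes of such abundance. Pdha1 (E1 alpha) had -0.80 (SE 0.09), Pdhb (E1 beta) -0.97 (SE 0.12) and Dlat (E2) -0.87 (SE 0.12). Their counterparts Bckdha, Bckdhb and Dbt had the -0.44, -0.68 and -0.28 given above, a smaller fall in each of the 3 pairs, with intervals that overlapped for Pdhb and Bckdhb and, narrowly, for Pdha1 and Bckdha. Pdha1, Pdhb and Dlat had base means of 16966, 14579 and 10514, against 2083, 617 and 539 for these counterparts. Differences between these genes, and the part of abundance in them, were not tested. Of the 4 pyruvate dehydrogenase kinases, Pdk2 (-0.72, SE 0.08) and Pdk4 (-0.85, SE 0.25) fell, Pdk3 rose (0.72, SE 0.20) and Pdk1 did not pass (-0.27, SE 0.13, adjusted p = 0.0875). Among the phosphatases, Pdp2 fell by 1.00 on the log2 scale (SE 0.21), while Pdp1 had 0.0051 (SE 0.074, adjusted p = 0.971) in the authors' deposited table. Under total-count scaling Pdp1 was called higher, at 0.29 (adjusted p = 3.0e-04), and Pdk4 lost its call with Mkl1 left out of the totals (adjusted p = 0.0508). Pdpr, a regulatory subunit of that phosphatase, fell by 0.79 (SE 0.14).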

How the data were processed

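Gene expression was measured by RNA sequencing of polyA RNA from sorted mouse cardiomyocytes, 5 libraries per group. Per the labels' protocols, a SMART-Seq kit made cDNA from 10 ng of RNA with 8 PCR cycles, and 500 pg of it went into Nextera XT libraries. Reads were aligned with STAR and counted with featureCounts, per the labels' design text. The submitters' processing notes name CASAVA 1.8, STAR 2.5.3a, Subread 1.5.2 and mm10. Neither annotation nor strandedness of counting is given in the sources used here.

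Per the file headers, the deposited columns are those that DESeq2 writes for a comparison. The deposited base mean is a signal, in counts divided by the authors' size factors and averaged over libraries. Deposited fold changes and SEs have log2 units. A deposited score, the Wald statistic, equals their ratio (largest gap 1.14e-05). The deposited p-value is adjusted by the Benjamini-Hochberg method over 14056 genes, which was recomputed with a largest gap of 1.44e-07.

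A gene was called at an adjusted p under 0.05. Implied group means follow from base mean and fold change for groups of equal size. Size factors were solved from genes with a single read, for which the base mean is the inverse of 10 times the factor of the library holding it. Intervals are at 95% and normal. Reads carry no molecular identifiers, so copies made by PCR are not separated from first molecules. Library totals, the floor and the counting error therefore refer to reads and not to molecules. The code (Python 3.11.15, pandas 2.3.3, SciPy 1.17.1) was tested on simulated data. All members were named. In each companion list, genes were named by smallest adjusted p, abundance or their role as counterparts. Rptor and Gatsl2 were named for a change of sign under total-count scaling, known only after their values were seen. Slc25a44, Bcat1, Pccb, Klf15, Esrrg, Sesn3, Rheb and Lars, all in these lists, were chosen for naming after their values were seen. A further 2 genes first placed in the lists, among the leucine branch and the glutamate partners, are not reported here. They were left out of counts and medians after values were known, for a reason unrelated to their values. The members and lists were chosen with earlier results of these data known. The alternatives tried were other thresholds, filters, adjustments and scalings.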

Additional observations from a re-analysis of the deposited data

How the results depend on the processing

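No paired analysis was possible because the table holds no values per library, although the labels number the libraries of both groups 1 to 5. For the same reason fits that leave out 1 library, edgeR, DESeq2 and fits without a count filter were not run, and whether 1 library decides a value is not known. The count of 8 members called lower was 8 or 9 under thresholds of 0.01 and 0.1, adjustment over every p-value, base mean filters of 10 and 100 and median-centring. It was 3 under total-count scaling, 2 with Mkl1 left out of the totals and 4 with a minimum absolute log2 fold change of 0.5. That minimum left 2735 of the 4792 genes called over all in either direction, among 14056 tested. Genes called over all numbered 3549 and 5580 at thresholds of 0.01 and 0.1. They numbered 4726 and 3897 with the base mean filters of 10 and 100, and 4789 with median-centring. Adjustment over every p-value, which covers 17363 genes, called 4604. Companion genes called higher went from 7 to 16 of 60 under both total-count scalings. The share of all genes tested called higher went from 16.6% to 40.4%, and to 41.3% with Mkl1 left out. The share called lower went from 17.4% to 6.6%, and to 6.34% with Mkl1 left out. The level of the highest member over the lowest was 25.4 per kilobase of transcript and 15.4 with coding length. Hibadh was highest by both lengths, while the lowest was Ppm1k by transcript length and Dbt by coding length.

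Total-count scaling adds 0.29, or 0.30 with Mkl1 left out, to every log2 fold change, and this shift turned the following values positive. Pairs give the values with Mkl1 in and out of the totals. They were 0.0074 and 0.017 for Dbt, 0.083 and 0.092 for Bckdk, and 0.088 and 0.098 for Ivd. They were 0.20 and 0.21 for Slc43a2, 0.26 and 0.27 for Slc25a44, 0.046 and 0.056 for Acadsb, and 0.021 and 0.031 for Pdk1. They were 0.11 and 0.12 for Klf15, 0.059 and 0.069 for Sesn1, 0.28 and 0.29 for Lars, 0.10 and 0.11 for Rptor, and 0.041 and 0.051 for Gatsl2. Of these, Bckdk alone was called under the authors' scaling, and Slc25a44 and Lars were called higher after the shift. Which scaling is closer to RNA per cell was not tested.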

Other observations

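Some genes that exchange amino groups with this pathway were also lower in dnMKL1 libraries. In the authors' deposited table Gpt2, the mitochondrial alanine aminotransferase, had a log2 fold change of -1.25 (SE 0.15), and the aspartate aminotransferases had -0.92 (SE 0.10) for Got1 and -0.79 (SE 0.10) for Got2. Glud1, glutamate dehydrogenase, had -0.38 (SE 0.07) and was not called under total-count scaling (adjusted p = 0.259).

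Among 6 regulators named with oxidative genes of heart, 4 fell and 0 rose, and under total-count scaling 1 was called higher and 2 lower. All genes tested had shares of 17.4% lower and 16.6% higher, and of 6.6% and 40.4% under total-count scaling. The nuclear receptor Esrra stood at -0.69 (SE 0.10) on the log2 scale in the authors' deposited table, and Ppara, another, at -0.78 (SE 0.15). Their coactivator Ppargc1a had -0.33 (SE 0.11), which was not called under total-count scaling (adjusted p = 0.765). Esrrb, a related receptor, also lost its call there (adjusted p = 0.371), and Esrrg, at 0.027 (SE 0.11) under the authors' scaling, was called higher at 0.31 (adjusted p = 0.0093). Klf15, a factor known for controlling genes of branched-chain amino acid breakdown in heart, had -0.18 (SE 0.19, adjusted p = 0.527).

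Of 9 genes of leucine sensing and the mTORC1 kinase, 2 rose and 1 fell, and under total-count scaling 5 were called higher and 0 lower. The shares over all genes tested were 16.6% higher and 17.4% lower, and 40.4% and 6.6% under total-count scaling. Sesn2, a leucine sensor, had a log2 fold change of 1.52 (SE 0.20, adjusted p = 5.1e-12) in the authors' deposited table, and Gatsl3 (Castor1), an arginine sensor, had 1.49 (SE 0.24, adjusted p = 6.8e-09). Mtor fell by 0.40 on the log2 scale (SE 0.14, adjusted p = 0.0183) and was not called under total-count scaling (adjusted p = 0.546). The genes called higher in addition under that scaling were Sesn3 (adjusted p = 0.0050), Rheb (adjusted p = 9.9e-04) and Lars (adjusted p = 0.0355).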
